A study of Mus musculus with 34 samples.

Results

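The 39 genes described here carry out DNA replication or mitosis, and their transcripts were followed in mouse liver before and after partial hepatectomy (PHx), the surgical removal of most of the liver. They were taken by gene symbol from the 78298 genes of the deposited table. Of these genes, 23 act in S phase and 16 act in G2 and mitosis. Members of the first group are *Mcm2*, *Mcm3*, *Mcm4*, *Mcm5*, *Mcm6*, *Mcm7*, *Mcm10*, *Cdc6*, *Cdt1*, *Gins1*, *Gins2*, *Pcna*, *Pola1*, *Pole*, *Rfc3*, *Rpa2*, *Rrm1*, *Rrm2*, *Tyms*, *Tk1*, *Uhrf1*, *E2f1* and *E2f2*. Members of the second are *Ccna2*, *Ccnb1*, *Ccnb2*, *Cdk1*, *Mki67*, *Top2a*, *Plk1*, *Birc5*, *Aurka*, *Aurkb*, *Bub1*, *Bub1b*, *Cdc20*, *Cenpf*, *Kif11* and *Kif20a*.

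Bulk RNA-seq was performed on whole liver from young adult male mice of C57/Bl6 background. WT mice carried floxed *Sirt1* alleles without Cre, and SIRT1intKO mice carried the same alleles with Cre under the *Villin* promoter, which deletes *Sirt1* in the intestinal epithelium and leaves it in the liver. Both genotypes were sampled at baseline (0 hours, not operated on and with no sham surgery) and at 6 and 24 hours after PHx. By the sample labels there were 6, 6 and 4 WT livers and 6, 5 and 7 SIRT1intKO livers at 0, 6 and 24 hours, 34 in all. The 0-hour libraries were numbered in a series of their own, so a difference in their handling cannot be told apart from the effect of PHx. The library numbers of the 24-hour livers fell in separate runs, the earlier holding most SIRT1intKO and the later most WT livers. A difference in handling between these runs was not tested. Each library held between 14892122 and 23480492 counts.

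A resting hepatocyte that is driven to divide passes through G1 before it copies its DNA. In G1, the MCM2-7 helicase is loaded onto replication origins by CDC6 and CDT1, and the E2F factors raise the genes of the replication machinery. In S phase, GINS, MCM10 and the DNA polymerases turn loaded helicases into running forks. Cyclin B with CDK1 then starts mitosis, for which the DREAM and MuvB complexes with B-MYB and FOXM1 control a later set of promoters. After PHx in the mouse, hepatocytes are known to copy their DNA well after the first hours and to enter mitosis later still.

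Replication and mitosis genes differ in the letters of their promoters, which are shown here because they set the S-phase genes apart from the mitotic genes by a feature that owes nothing to the expression values. RefSeq promoter windows (GRCm38.p6, 250 bases before to 50 after a start site) were matched for 32 of the 39 genes. E2F motifs (TTTCCCGC, TTTGGCGC, TTTCGCGC or TTTGCCGC on either strand) were found in 10 of 19 S-phase genes (52.6%) and 1 of 13 mitotic genes (7.69%), against 2.6% of all 27025 genes with a window. The CHR element bound by the later complexes (TTTGAA or TTCGAA on either strand) was found in 4 of 19 S-phase genes (21.1%) and 11 of 13 mitotic genes (84.6%), against 21.7% of all genes. CCAAT boxes were found on either strand in 14 of 19 (73.7%) and 12 of 13 (92.3%), against 41.1% of all genes. These matches describe letters only. TTCGAA reads the same on both strands, and neighbouring E2F matches can overlap.

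Below are the 250 bases before the start of 7 genes, 5′ to 3′ on the strand of the gene, with every E2F, CHR and CCAAT match in capitals. *Mcm5* and *Mcm6*, subunits of the replicative helicase, hold overlapping E2F matches. *Rpa2*, a subunit of the single-strand DNA binding protein, and *Mcm10*, a scaffold of the running helicase, hold CCAAT boxes but neither of the other motifs. *Cdk1*, *Mki67* and *Top2a* hold CHR matches, and *Cdk1* holds an E2F match as well.
Mcm5, chr8:75109259-75109508, plus strand: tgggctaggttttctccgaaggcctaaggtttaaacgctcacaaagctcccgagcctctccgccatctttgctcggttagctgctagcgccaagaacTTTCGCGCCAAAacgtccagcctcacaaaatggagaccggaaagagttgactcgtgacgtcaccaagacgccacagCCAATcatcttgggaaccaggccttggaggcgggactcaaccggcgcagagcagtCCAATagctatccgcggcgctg
Mcm6, chr1:128359706-128359955, minus strand: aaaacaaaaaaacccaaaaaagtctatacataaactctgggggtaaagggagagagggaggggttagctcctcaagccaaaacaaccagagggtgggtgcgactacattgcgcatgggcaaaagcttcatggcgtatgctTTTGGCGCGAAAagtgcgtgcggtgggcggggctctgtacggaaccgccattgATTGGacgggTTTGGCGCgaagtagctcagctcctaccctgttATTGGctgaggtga
Rpa2, chr4:132768110-132768359, plus strand: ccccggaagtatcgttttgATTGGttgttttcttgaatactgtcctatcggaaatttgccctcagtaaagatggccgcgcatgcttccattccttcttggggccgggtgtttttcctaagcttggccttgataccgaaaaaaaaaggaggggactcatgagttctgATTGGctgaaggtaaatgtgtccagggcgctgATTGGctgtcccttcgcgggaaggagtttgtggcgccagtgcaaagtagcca
Mcm10, chr2:5012792-5013041, minus strand: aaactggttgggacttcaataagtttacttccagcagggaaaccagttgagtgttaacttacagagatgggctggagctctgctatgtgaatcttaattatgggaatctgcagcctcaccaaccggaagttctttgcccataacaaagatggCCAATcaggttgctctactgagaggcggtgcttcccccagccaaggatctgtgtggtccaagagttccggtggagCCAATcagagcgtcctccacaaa
Cdk1, chr10:69352913-69353162, minus strand: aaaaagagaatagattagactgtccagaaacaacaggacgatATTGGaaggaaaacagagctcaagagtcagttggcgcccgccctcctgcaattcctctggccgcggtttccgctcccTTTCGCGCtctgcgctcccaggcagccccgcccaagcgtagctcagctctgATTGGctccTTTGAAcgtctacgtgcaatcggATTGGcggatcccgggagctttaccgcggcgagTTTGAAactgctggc
Mki67, chr7:135716380-135716629, minus strand: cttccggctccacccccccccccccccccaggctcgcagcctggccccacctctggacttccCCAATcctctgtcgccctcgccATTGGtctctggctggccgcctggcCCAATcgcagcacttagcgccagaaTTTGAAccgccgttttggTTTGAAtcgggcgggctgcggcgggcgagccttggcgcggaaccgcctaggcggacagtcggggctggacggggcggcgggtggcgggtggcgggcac
Top2a, chr11:99024190-99024439, minus strand: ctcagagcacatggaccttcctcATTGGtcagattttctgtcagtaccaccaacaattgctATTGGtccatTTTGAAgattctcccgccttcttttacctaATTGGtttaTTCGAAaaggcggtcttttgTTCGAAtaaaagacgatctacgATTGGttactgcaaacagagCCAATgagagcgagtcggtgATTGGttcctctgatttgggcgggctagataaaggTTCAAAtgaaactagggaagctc

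Low values set what could be measured. Mitotic transcripts were scarce in every liver: the highest value of any mitotic member was 3.58 CPM, from libraries in which no mitotic gene exceeded 46 counts. CPM is a count relative to the size of its library, here corrected for library composition by TMM. *Cdc6* among the S-phase genes and *Ccnb1*, *Plk1*, *Bub1* and *Cenpf* among the mitotic genes were too low to be tested, since none exceeded 0.751 CPM or 20 counts in any liver. *Ccnb1*, the mitotic cyclin, had medians of 0.197, 0.155 and 0.114 CPM in WT livers at 0, 6 and 24 hours and of 0.283, 0.126 and 0.153 CPM in SIRT1intKO livers. *Plk1*, a mitotic kinase, had medians of 0.367, 0.302 and 0.245 CPM in WT and of 0.369, 0.243 and 0.163 CPM in SIRT1intKO livers. The other 22 S-phase and 12 mitotic genes were tested. Per kilobase of exon, the median level at 0 hours in WT livers was 0.662 CPM over the S-phase genes and 0.149 CPM over the mitotic genes. On that scale *Mcm10* had the highest level among the S-phase genes (12.3 CPM per kilobase), followed by *Pcna* (8.22).

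The genes were first compared between 6 and 0 hours, the time in which hepatocytes leave rest. At 6 hours the tested genes either fell or passed no test, with 1 exception. A gene was called when its Benjamini-Hochberg adjusted p by edgeR's quasi-likelihood test was under 0.05 and its absolute log2 fold change was over 1. In WT livers 0 of 34 genes were called higher, against 7.14% of all 14980 genes tested, and 5 S-phase genes and 1 mitotic gene were called lower, against 8.33% of all genes. In SIRT1intKO livers 0 were called higher (7.8% of all genes) and 7 S-phase and 3 mitotic genes were called lower (8.67% of all genes). The exception was *Rpa2* in SIRT1intKO livers, which rose by 0.61 ± 0.22 (SE, log2; adjusted p = 0.0259, edgeR), too little to be called. The median log2 fold change of the S-phase genes was -0.39 in WT and -0.66 in SIRT1intKO livers, and that of the mitotic genes was -0.32 and -0.91, beside 0.02 and 0.01 over all genes. All livers at 6 hours lay to 1 side of all livers at 0 hours for 6 S-phase genes and 0 mitotic genes in WT (24.1% of all genes) and for 7 S-phase and 2 mitotic genes in SIRT1intKO mice (26.2% of all genes). P-values here judge a difference of group means against the spread between livers, which was estimated from all 34 livers. In whole tissue, fewer cells of a type and less RNA per cell cannot be told apart.

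**Figure D1:**
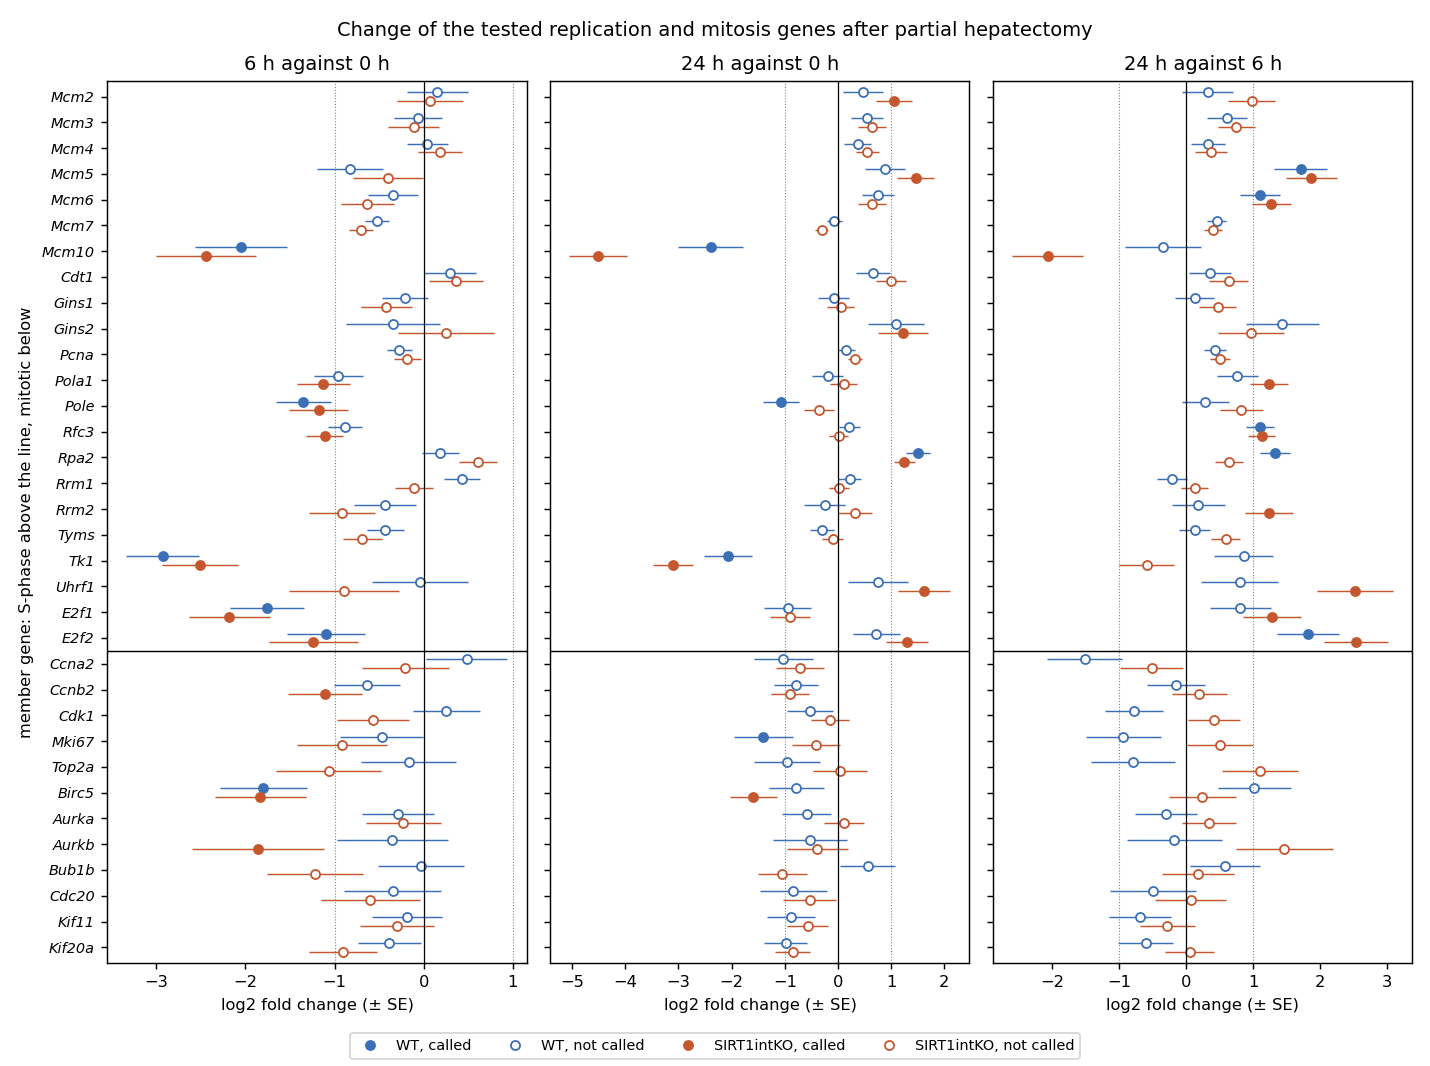
Log2 fold change (x axis, ± SE) of the 34 tested genes (y axis; 22 S-phase genes above the line, 12 mitotic genes below) at 6 against 0, 24 against 0 and 24 against 6 hours. Blue points are WT and orange points SIRT1intKO; filled points were called and dotted lines mark a change of 1 on the log2 scale. At 6 hours every called gene lies to the left of 0, and at 24 against 6 hours the called points on the right are S-phase genes.

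*Mcm10*, which binds the helicase and the polymerase at the fork, fell the most in level. At 0 hours the WT livers ranged from 54.6 to 107 CPM with a median of 94.6, and the SIRT1intKO livers from 68.8 to 138 with a median of 112. At 6 hours the WT livers ranged from 14.7 to 29.7 CPM with a median of 21.2, and the SIRT1intKO livers gave 37.3, 8.73, 10.7, 21.7 and 20.7. Every liver at 6 hours was below every liver at 0 hours. The log2 fold change was -2.05 ± 0.52 (SE) in WT (adjusted p = 0.00238) and -2.44 ± 0.56 in SIRT1intKO livers (adjusted p = 0.00103).

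*Tk1*, thymidine kinase of the nucleotide salvage pathway, fell as well. The WT livers ranged from 14.1 to 24.7 CPM (median 16.9) at 0 hours and from 1.62 to 3.27 (median 2.15) at 6 hours. Values in SIRT1intKO livers ranged from 10.2 to 19.2 CPM (median 16.1) at 0 hours and gave 3.53, 1.83, 2.58, 2.55 and 2.7 at 6 hours. The groups did not overlap in either genotype. The log2 fold change was -2.93 ± 0.41 (SE, adjusted p = 1.58e-06) in WT and -2.51 ± 0.43 (adjusted p = 3.29e-05) in SIRT1intKO livers. Exons of *Tk1* overlap those of *Afmid*, on the opposite strand. *Afmid*, an enzyme of tryptophan breakdown, had medians of 117, 23.5 and 23.4 CPM in WT and of 106, 32.6 and 8.57 CPM in SIRT1intKO livers at 0, 6 and 24 hours, so it fell with *Tk1*. Its part in the *Tk1* values was not tested.

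Both E2F genes among the members, *E2f1* and *E2f2*, were also called lower at 6 hours, whereas *E2f3*, another activating E2F factor, was called higher in SIRT1intKO livers (1.11 ± 0.27, SE, log2; adjusted p = 0.00184) and had 0.65 ± 0.26 in WT livers (adjusted p = 0.0521). *E2f1* ranged from 1.72 to 3.42 CPM (median 3.09) in WT livers at 0 hours and from 0.359 to 1.46 (median 0.849) at 6 hours. In SIRT1intKO livers it ranged from 2.32 to 3.45 CPM (median 3.17) at 0 hours and gave 1.03, 0.563, 0.566, 0.425 and 0.779 at 6 hours. No liver at 6 hours reached the lowest value at 0 hours, and the log2 fold change was -1.75 ± 0.41 (SE, adjusted p = 0.00121) in WT and -2.18 ± 0.45 (adjusted p = 0.000329) in SIRT1intKO livers. *E2f2* was near the limit of the test, with -1.09 ± 0.43 (SE, adjusted p = 0.0461) in WT and -1.24 ± 0.50 (adjusted p = 0.0499) in SIRT1intKO livers. It lost the call in 9 of 34 fits that left out 1 library in WT, with values there from -1.10 to -0.98, and in 17 of 34 in SIRT1intKO, from -1.39 to -0.94.

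Among the polymerase and loading factor genes, *Pole*, the catalytic subunit of the leading-strand polymerase, fell by 1.35 on the log2 scale in WT (SE 0.31, adjusted p = 0.000833) and by 1.18 in SIRT1intKO livers (SE 0.33, adjusted p = 0.00577). Its start lies within 1 kb of that of *Pxmp2*, a peroxisomal membrane protein gene on the opposite strand, whose exons do not overlap those of *Pole*. *Pxmp2* fell by 0.76 (adjusted p = 0.00417, edgeR) in WT and 0.71 (adjusted p = 0.0106) in SIRT1intKO livers on the log2 scale. The part of *Pxmp2* in the *Pole* values was not tested. *Pola1*, of the polymerase that starts each strand, changed by -0.96 ± 0.27 (SE, adjusted p = 0.00655) in WT and was called in SIRT1intKO livers at -1.12 ± 0.30 (adjusted p = 0.00352). *Rfc3*, of the clamp loader, changed by -0.88 ± 0.19 (SE, adjusted p = 0.000498) and -1.11 ± 0.20 (adjusted p = 7.64e-05). These 3 genes therefore passed the test in both genotypes. *Mcm7*, a helicase subunit, fell by less, at -0.52 ± 0.13 (SE, adjusted p = 0.00202) in WT and -0.70 ± 0.14 (adjusted p = 0.00018) in SIRT1intKO livers. *Tyms*, thymidylate synthase, fell by 0.69 on the log2 scale in SIRT1intKO livers (SE 0.22, adjusted p = 0.0138) and had -0.43 ± 0.21 in WT livers (adjusted p = 0.102).

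Of the mitotic genes, *Birc5*, which encodes survivin of the chromosomal passenger complex, was called lower at 6 hours in both genotypes. In WT livers the values ranged from 0.766 to 2.37 CPM (median 1.24) at 0 hours and from 0 to 0.934 (median 0.349) at 6 hours. The SIRT1intKO livers ranged from 0.596 to 2.46 CPM (median 1.66) at 0 hours and gave 0.513, 0.423, 0.503, 0.364 and 0.419 at 6 hours. The WT groups overlapped through replicate 6 at 6 hours, and the SIRT1intKO groups did not overlap. The log2 fold change was -1.80 ± 0.49 (SE, adjusted p = 0.00415) in WT and -1.83 ± 0.51 (adjusted p = 0.00497) in SIRT1intKO livers. *Ccnb2*, a B-type cyclin, and *Aurkb*, the kinase of the same complex as survivin, were called in SIRT1intKO livers at -1.10 ± 0.41 (SE, adjusted p = 0.0348) and -1.86 ± 0.74 (adjusted p = 0.0473). *Aurkb* did not exceed 0.189 CPM in any SIRT1intKO liver at 6 hours. The *Ccnb2* call was lost in 7 of 34 fits without 1 library (values from -1.15 to -0.91), those without SIRT1intKO replicates 1, 2, 3 or 6 at 0 hours or 2, 3 or 5 at 6 hours. The *Aurkb* call was lost in 10 of the 30 such fits that tested it, with values there from -1.93 to -1.59.

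One WT liver at 6 hours stood apart in the mitotic genes. Replicate 6 held 3.42 CPM of *Mki67*, the proliferation marker Ki-67, where the other 5 held 0.311 to 0.784, and 3.58 CPM of *Cdk1*, where the others held 0.729 to 1.29. It was also the highest of its group for *Ccna2* (2.18 CPM) and *Top2a* (2.33 CPM). In the same liver the summed markers of Kupffer cells (182 CPM, group median 104), neutrophils (59.0, median 14.2), monocytes and macrophages (93.5, median 59.7) and sinusoidal endothelium (142, median 110) were the highest of the group. The part of these cells in the mitotic values was not tested. Replicate 6 also had a library number apart from those of the other 5, among the numbers of livers sampled later after PHx. Over all genes, the chi-square per gene was 113.02 to 198.1 between it and the other 5, and 29.14 to 114.94 among those 5. Whether a difference in handling or labelling set this liver apart was not tested. Without this liver 3 mitotic genes instead of 1 were called lower in WT at 6 hours. In SIRT1intKO livers the count of 3 went to 1 without replicate 1 or 6 at 0 hours or replicate 2 or 5 at 6 hours, and to 5 without replicate 4 at 6 hours.

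**Figure D2:**
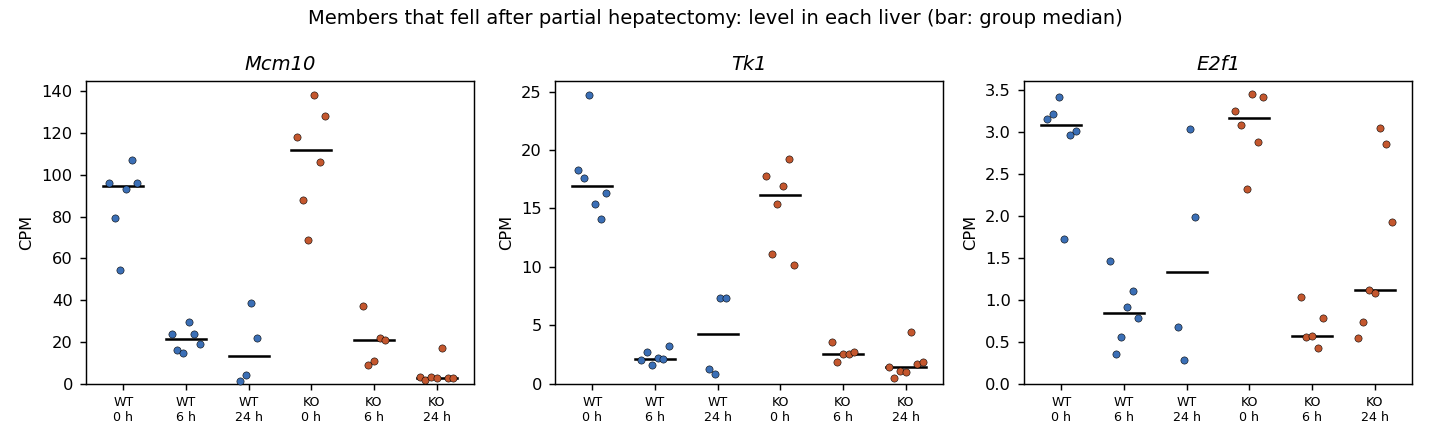
CPM (y axis, from 0) of *Mcm10*, *Tk1* and *E2f1* in each liver (points) of the 6 groups (x axis; KO is SIRT1intKO), with the group median as a bar. All 3 genes were lower at 6 than at 0 hours in every liver, and at 24 hours WT replicates 3 and 4 and SIRT1intKO replicate 5 held the most *Mcm10*.

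At 24 hours, the replication genes were compared with 0 hours and with 6 hours, to follow them into the phase in which hepatocytes proliferate. In WT livers 1 S-phase gene was called higher against 0 hours (8.3% of all genes) and 3 were called lower (7.37% of all genes), and 0 mitotic genes were called higher and 1 lower. In SIRT1intKO livers 6 S-phase genes were called higher (11.9% of all genes) and 2 lower (11% of all genes), with 0 and 1 among the mitotic genes. At an adjusted p under 0.05 alone, 2 S-phase genes were higher and 3 lower in WT (19.5% and 14.5% of all genes), and 10 were higher and 4 lower in SIRT1intKO livers (26.1% and 23.9% of all genes). No mitotic gene was higher at that threshold in either genotype, and 1 and 3 were lower. Median log2 fold changes were 0.22 for the S-phase and -0.81 for the mitotic genes in WT, and 0.32 and -0.55 in SIRT1intKO livers, beside 0.02 and 0.04 over all genes. The livers at 24 and 0 hours did not overlap for 5 S-phase genes and 1 mitotic gene in WT (19.3% of all genes) and for 4 and 0 in SIRT1intKO mice (22% of all genes). The groups had 4 WT and 7 SIRT1intKO livers, so counts of calls are not equally powered between genotypes.

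*Rpa2*, whose product coats single-stranded DNA at forks, was the S-phase gene called higher in both genotypes. The WT livers ranged from 2.76 to 4.14 CPM (median 3.51) at 0 hours and gave 10.5, 18, 6.39 and 5.13 at 24 hours. In SIRT1intKO livers the values ranged from 2.36 to 3.67 CPM (median 3.18) at 0 hours and from 6.2 to 8.88 (median 6.91) at 24 hours. Every liver at 24 hours exceeded every liver at 0 hours in both genotypes. The log2 fold change was 1.51 ± 0.22 (SE, adjusted p = 1.02e-05) in WT and 1.25 ± 0.20 (adjusted p = 8.86e-06) in SIRT1intKO livers. Against 6 hours, where WT livers ranged from 2.93 to 5.03 CPM, the WT rise was 1.33 ± 0.22 (adjusted p = 0.000186), which became 0.90 without WT replicate 2 at 24 hours.

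The helicase genes of the MCM2-7 ring differed in the size and direction of their change. *Mcm5* ranged from 1.03 to 2.38 CPM (median 1.42) in WT livers at 0 hours and from 0.419 to 1.53 (median 0.899) at 6 hours, and gave 1.54, 2.57, 5.5 and 2.24 at 24 hours. In SIRT1intKO livers it ranged from 0.819 to 1.99 CPM (median 1.03) at 0 hours, gave 1.15, 0.775, 1.13, 0.728 and 0.779 at 6 hours, and ranged from 1.36 to 7.09 (median 3.39) at 24 hours. Each liver at 24 hours was above each liver at 6 hours of its genotype, while the 24-hour and 0-hour groups overlapped. Against 0 hours the log2 fold change was 0.88 ± 0.38 (SE, adjusted p = 0.0716) in WT and 1.46 ± 0.35 (adjusted p = 0.000849) in SIRT1intKO livers. Against 6 hours it was 1.71 ± 0.39 (adjusted p = 0.0034) and 1.86 ± 0.38 (adjusted p = 0.000587).

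*Mcm2* ranged from 1.13 to 3.96 CPM (median 2.12) in WT livers at 0 hours and from 1.71 to 4.17 (median 2.26) at 6 hours, and gave 1.72, 2.86, 5.66 and 2.69 at 24 hours. In SIRT1intKO livers it ranged from 1.5 to 2.58 CPM (median 2.17) at 0 hours, gave 2.05, 0.986, 2.08, 2.25 and 3.65 at 6 hours, and ranged from 1.79 to 6.98 (median 4.58) at 24 hours. All but replicate 4 of the SIRT1intKO livers at 24 hours exceeded the 0-hour livers, whereas the WT groups overlapped widely. The change at 24 against 0 hours was 0.47 ± 0.38 (SE, adjusted p = 0.345) in WT and 1.05 ± 0.33 (adjusted p = 0.00978) in SIRT1intKO livers. The latter lay at 0.93 to 0.98, under the limit for a call, without SIRT1intKO replicate 3 at 0 hours or replicates 2, 5 or 6 at 24 hours.

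*Mcm6* was called at 24 against 6 hours in both genotypes, at 1.10 ± 0.30 (SE, adjusted p = 0.0121) in WT and 1.27 ± 0.29 (adjusted p = 0.00172) in SIRT1intKO livers. Its 4 WT livers at 24 hours held 6.09, 5.6, 9.11 and 4.43 CPM and its 7 SIRT1intKO livers 2.23 to 11.8 (median 4.26). At 6 hours the ranges were 2.45 to 3.5 and 1.99 to 3.08 CPM, so the WT groups were apart and the SIRT1intKO groups touched through replicate 1 at 24 hours. The change was 0.90 without WT replicate 3 at 24 hours and 1.00 without SIRT1intKO replicate 5 at 24 hours, where the calls were lost. Of the remaining helicase genes at 24 against 0 hours, *Mcm3* and *Mcm4* rose in SIRT1intKO livers by 0.64 ± 0.26 (SE, adjusted p = 0.0411) and 0.55 ± 0.22 (adjusted p = 0.0382), and *Mcm7* fell by 0.31 on the log2 scale (SE 0.12, adjusted p = 0.0382). In WT livers these 3 genes did not pass the test, with 0.54, 0.37 and -0.07 on the log2 scale.

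*Cdt1*, the licensing factor, rose in SIRT1intKO livers by 1.00 ± 0.28 (SE, log2; adjusted p = 0.00368) against 0 hours, just under the size for a call. Its SIRT1intKO livers ranged from 0.854 to 1.66 CPM (median 1.23) at 0 hours, gave 1.28, 1.55, 2.26, 1.4 and 1.44 at 6 hours, and ranged from 1.79 to 2.86 (median 2.58) at 24 hours. In WT livers the values ranged from 0.613 to 1.98 CPM (median 1.44) and from 0.747 to 2.72 (median 1.55) at 0 and 6 hours and gave 2.52, 3.14, 2.25 and 1.05 at 24 hours. In SIRT1intKO mice the 24-hour livers were all above the 0-hour livers, and in WT mice replicate 4 at 24 hours lay inside the 0-hour range (0.66 ± 0.31, adjusted p = 0.102). *Gins2*, a subunit of the GINS part of the helicase, was called higher in SIRT1intKO livers at 1.22 ± 0.47 (SE, adjusted p = 0.0316), beside 1.09 ± 0.53 in WT livers (adjusted p = 0.11). The call was lost without SIRT1intKO replicates 1, 2, 3 or 5 at 0 hours or 2, 5 or 7 at 24 hours (1.06 to 1.21). Its partner *Gins1* had changes of 0.05 and -0.08.

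*Uhrf1*, which carries DNA methylation over to newly copied DNA, had the largest called rise of the members at 24 against 0 hours in SIRT1intKO livers. These livers ranged from 0.197 to 0.869 CPM (median 0.336) at 0 hours, gave 0.192, 0.211, 0.126, 0.364 and 0.18 at 6 hours, and gave 0.301, 2.49, 0.372, 0.705, 1.55, 1.6 and 1.83 at 24 hours. The WT livers ranged from 0.192 to 0.781 CPM (median 0.347) at 0 hours and from 0.0598 to 1.01 (median 0.372) at 6 hours, and gave 0.369, 0.4, 1.41 and 0.597 at 24 hours. SIRT1intKO replicates 2, 5, 6 and 7 and WT replicate 3 at 24 hours were above all livers at 0 hours, and the rest were within the 0-hour range. Of the livers above it, SIRT1intKO replicate 2 was in the earlier run of library numbers and the others in the later run. The later run also held WT replicates 2 and 4, and the part of the runs was not tested. The change against 0 hours was 1.62 ± 0.49 (SE, adjusted p = 0.00712) in SIRT1intKO and 0.76 ± 0.56 (adjusted p = 0.307) in WT livers, and against 6 hours 2.52 ± 0.57 (adjusted p = 0.0016) and 0.80 ± 0.57 (adjusted p = 0.365).

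*E2f2*, an activating E2F factor, dipped at 6 hours and was higher at 24 hours. In WT livers the values ranged from 0.431 to 1.26 CPM (median 1.07) at 0 hours and from 0.239 to 0.798 (median 0.377) at 6 hours, and gave 1.41, 1.77, 1.78 and 1.29 at 24 hours. Values in SIRT1intKO livers ranged from 0.118 to 1.18 CPM (median 0.626) at 0 hours, gave 0.513, 0.352, 0.126, 0.121 and 0.18 at 6 hours, and ranged from 0.705 to 2.82 (median 1.06) at 24 hours. The 24-hour livers were above the 6-hour livers in both genotypes. At 24 hours SIRT1intKO replicates 1 to 4, in the earlier run of library numbers, held 0.705 to 1.06 CPM. SIRT1intKO replicates 5 to 7, in the later run, held 1.74 to 2.82. The WT livers held 1.41 CPM in the earlier run and 1.29 to 1.78 in the later run. The part of the runs in these values was not tested. The change from 6 hours was 1.82 ± 0.46 (SE, adjusted p = 0.00694) in WT and 2.54 ± 0.47 (adjusted p = 0.000246) in SIRT1intKO livers, and from 0 hours 0.72 ± 0.44 (adjusted p = 0.204) and 1.30 ± 0.40 (adjusted p = 0.00782).

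*E2f1* did not regain its 0-hour level in most livers. At 24 hours the WT livers gave 0.676, 0.286, 3.04 and 1.99 CPM, and the SIRT1intKO livers ranged from 0.542 to 3.05 with a median of 1.12. SIRT1intKO replicates 1 to 4, in the earlier run of library numbers, gave 0.542, 0.734, 1.12 and 1.08 CPM. SIRT1intKO replicates 5 to 7, in the later run, gave 3.05, 2.86 and 1.93. WT replicate 1 was in the earlier run, and WT replicate 2, also low, was in the later run. The part of the runs in these values was not tested. WT replicate 3 and SIRT1intKO replicates 5 and 6 were within the 0-hour range of their genotype, WT replicate 4 was as well, and the others were below it. Against 0 hours the change was -0.95 ± 0.45 (SE, adjusted p = 0.0992) in WT and -0.90 ± 0.37 (adjusted p = 0.0442) in SIRT1intKO livers. Against 6 hours *E2f1* was called higher in SIRT1intKO livers (1.28 ± 0.44, adjusted p = 0.028), and this call was lost without SIRT1intKO replicates 2, 3 or 4 at 6 hours or 5 or 6 at 24 hours (1.06 to 1.24). In WT livers the value was 0.81 ± 0.46 (adjusted p = 0.235).

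*Pcna*, the sliding clamp, changed little. The WT livers ranged from 17.9 to 22.4 CPM (median 19.7) at 0 hours and from 13.3 to 22.4 (median 15.7) at 6 hours, and gave 25.8, 27.5, 18.7 and 17.4 at 24 hours. The SIRT1intKO livers ranged from 17.2 to 24 CPM (median 19.6) at 0 hours, gave 13.6, 20, 20.1, 19.5 and 15.5 at 6 hours, and ranged from 19.9 to 37.2 (median 23.4) at 24 hours. All groups overlapped with their neighbours in time. It rose in SIRT1intKO livers between 6 and 24 hours (0.51 ± 0.15, SE, log2; adjusted p = 0.0103), and between 0 and 24 hours it changed by 0.32 ± 0.14 (adjusted p = 0.0507) and in WT livers by 0.16 ± 0.16 (adjusted p = 0.457). SIRT1intKO replicate 2 gave the value of 37.2, and it was also the liver with the highest summed neutrophil markers at 24 hours (948 CPM, group median 93.6). The part of these cells in its values was not tested.

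*Rrm2*, the regulated subunit of ribonucleotide reductase, ranged from 0.358 to 1.97 CPM (median 1.41) in WT livers at 0 hours and from 0.491 to 2.18 (median 0.783) at 6 hours, and gave 1.41, 1.03, 1.05 and 0.996 at 24 hours. In SIRT1intKO livers the values ranged from 1.13 to 1.98 CPM (median 1.54) at 0 hours, gave 0.449, 1.06, 1.19, 0.789 and 0.599 at 6 hours, and ranged from 1.08 to 3.08 (median 1.87) at 24 hours. Neighbouring times overlapped in both genotypes, by a narrow margin between 0 and 6 hours in SIRT1intKO livers. It was called higher at 24 against 6 hours in SIRT1intKO livers (1.23 ± 0.36, SE, adjusted p = 0.0115) and had 0.18 ± 0.39 in WT livers (adjusted p = 0.791). *Rrm1*, the other subunit of the enzyme, passed no test. In all, 5 S-phase genes were called higher between 6 and 24 hours in WT livers (*Mcm5*, *Mcm6*, *Rfc3*, *Rpa2* and *E2f2*; 4.41% of all genes) and 0 lower (2.69%). In SIRT1intKO livers these were 8 (*Mcm5*, *Mcm6*, *Rrm2*, *Pola1*, *Rfc3*, *Uhrf1*, *E2f1* and *E2f2*; 6.67%) and 1 (*Mcm10*; 3.89%). The livers at 24 and 6 hours did not overlap for 5 S-phase genes in each genotype, all of them higher at 24 hours, and for 1 mitotic gene, lower, in WT (7.36% of all genes in WT and 8.81% in SIRT1intKO mice, in either direction). *Rfc3*, which had fallen at 6 hours, rose by 1.10 ± 0.21 (adjusted p = 0.000584; 0.94 without WT replicate 2 at 24 hours) and 1.12 ± 0.20 (adjusted p = 0.000122). *Pola1* rose by 1.24 ± 0.29 in SIRT1intKO livers (adjusted p = 0.00203).

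**Figure D3:**
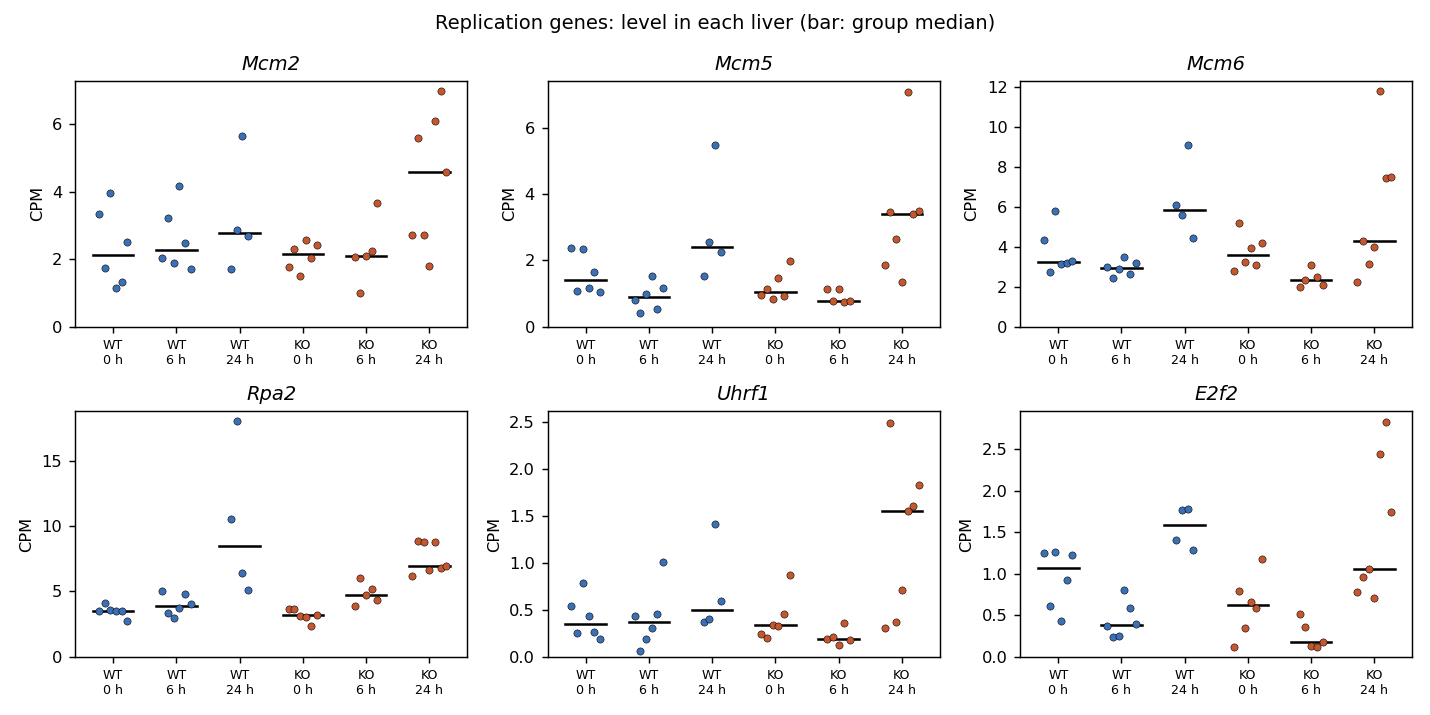
CPM (y axis, from 0) of 6 S-phase genes in each liver (points) of the 6 groups (x axis; KO is SIRT1intKO), with the group median as a bar. *Rpa2* was higher at 24 than at 0 hours in every liver of both genotypes, and at 24 hours *Uhrf1* reached 1.55 to 2.49 CPM in 4 of the 7 SIRT1intKO livers and 0.301 to 0.705 in the other 3.

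*Mcm10* and *Tk1* in both genotypes and *Pole* in WT livers were called lower at 24 than at 0 hours. *Mcm10* gave 1.48, 4.28, 38.8 and 22.1 CPM in the WT livers and 3.01, 1.76, 3.24, 2.71, 17.1, 2.52 and 2.62 CPM in the SIRT1intKO livers. All were below the 0-hour livers, but WT replicates 3 and 4 and SIRT1intKO replicate 5 held several times as much as the other livers. WT replicates 3 and 4 were also close to each other over all genes (chi-square per gene of 21.68, against 172.99 to 254.03 between either of them and replicates 1 and 2). WT replicate 4 had the lowest summed neutrophil markers of its group (7.32 CPM, median 50.7) and WT replicate 3 the lowest cholangiocyte markers (64.5, median 171). WT replicate 4 also had the highest hepatocyte markers (45500, median 37100) and the lowest monocyte and macrophage markers (44.5, median 52.9). Neutrophil precursor markers were lowest in WT replicate 3 (6.44, median 10.6). WT replicate 3 also had the highest Kupffer cell (93.8, median 82.4), sinusoidal endothelium (85.7, median 60.3) and stellate cell markers (216, median 170). Its erythroid precursor (95.2, median 80.8) and lymphocyte markers (2.15, median 0.55) were the highest as well. SIRT1intKO replicate 5 had the lowest neutrophil (22.1, median 93.6), macrophage (51.1, median 103), Kupffer cell (75.4, median 138) and cholangiocyte markers (53.7, median 146) of its group. It had the highest erythroid precursor (72.9, median 49.3) and lymphocyte markers (1.03, median 0.496). WT replicates 3 and 4 and SIRT1intKO replicate 5 were in the later run of library numbers, which also held livers low in *Mcm10*. The part of these differences in the *Mcm10* values was not tested. The log2 fold change was -2.39 ± 0.61 (SE, adjusted p = 0.00349) in WT and -4.51 ± 0.54 (adjusted p = 1.6e-07) in SIRT1intKO livers. It was -3.22 without WT replicate 3 and -5.34 without SIRT1intKO replicate 5. From 6 to 24 hours *Mcm10* fell further in SIRT1intKO livers (-2.06 ± 0.52, adjusted p = 0.00416; -2.90 without replicate 5 at 24 hours), beside -0.34 ± 0.57 in WT livers (adjusted p = 0.731).

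*Tk1* gave 1.23, 0.8, 7.38 and 7.32 CPM in WT and 1.45, 0.514, 1.06, 0.976, 4.46, 1.68 and 1.9 CPM in SIRT1intKO livers at 24 hours. The livers high in *Mcm10* were also those high in *Tk1*, and all were below the 0-hour range. The log2 fold change from 0 hours was -2.07 ± 0.45 (SE, adjusted p = 0.000747) in WT and -3.10 ± 0.38 (adjusted p = 2.08e-07) in SIRT1intKO livers. *Pole* ranged from 0.915 to 1.67 CPM (median 1.26) in WT livers at 0 hours and from 0.249 to 0.736 (median 0.534) at 6 hours, and gave 0.492, 0.286, 0.89 and 0.747 at 24 hours. Values in SIRT1intKO livers ranged from 0.592 to 1.3 CPM (median 1.01) at 0 hours, gave 0.513, 0.211, 0.314, 0.728 and 0.299 at 6 hours, and ranged from 0.421 to 1.13 (median 0.734) at 24 hours. The WT livers at 24 hours were all below those at 0 hours, and the SIRT1intKO groups overlapped. The change was -1.07 ± 0.34 (SE, adjusted p = 0.0152) in WT and -0.36 ± 0.28 (adjusted p = 0.303) in SIRT1intKO livers, and the WT call was lost without WT replicate 6 at 0 hours or replicates 1 or 2 at 24 hours (-0.98 to -0.84).

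The mitotic genes were not called higher at 24 hours in any comparison with 0 or 6 hours by edgeR. Against 6 hours, 0 were called in either direction in either genotype by edgeR, against 7.1% of all genes in WT and 10.6% in SIRT1intKO livers. There were 1 and 0 at an unadjusted p under 0.05 (30.1% and 39.7% of all genes). DESeq2 called 1 in WT and 0 in SIRT1intKO livers. Leaving out SIRT1intKO replicate 1 at 24 hours gave 1 call in WT. *Mki67* ranged from 1.03 to 2.34 CPM (median 1.33) in WT livers at 0 hours and from 0.311 to 3.42 (median 0.727) at 6 hours, and gave 0.922, 0.514, 0.576 and 0.199 at 24 hours. In SIRT1intKO livers it ranged from 0.986 to 2.36 CPM (median 1.27) at 0 hours, gave 0.834, 0.282, 0.566, 1.09 and 0.839 at 6 hours, and gave 0.301, 2.27, 0.372, 1.03, 0.516, 1.37 and 1.41 at 24 hours. The WT livers at 24 hours were all below those at 0 hours, and the SIRT1intKO groups overlapped. The change was -1.40 ± 0.56 (SE, adjusted p = 0.0499) in WT and -0.41 ± 0.45 (adjusted p = 0.458) in SIRT1intKO livers, and the WT call was lost in 23 of 34 fits without 1 library, with values there from -1.46 to -1.12.

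*Birc5* was called lower at 24 against 0 hours in SIRT1intKO livers, where it gave 0.602, 0.66, 0.0532, 0.271, 0.892, 0.534 and 0.655 CPM. The WT livers gave 0.738, 0.914, 1.1 and 0.448 CPM. Both groups overlapped with their 0-hour livers, the SIRT1intKO group through replicate 4 at 0 hours (0.596 CPM). The change was -1.59 ± 0.44 (SE, adjusted p = 0.00332) in SIRT1intKO and -0.78 ± 0.51 (adjusted p = 0.243) in WT livers. *Ccnb2* and *Kif20a*, a kinesin of the late mitotic spindle, fell in SIRT1intKO livers by 0.91 (SE 0.36, adjusted p = 0.0372) and 0.85 (SE 0.33, adjusted p = 0.0333) on the log2 scale, short of a call. The count of 1 mitotic gene called became 2 without SIRT1intKO replicate 2 at 0 hours, WT replicates 2 or 4 at 24 hours or SIRT1intKO replicates 5 or 7 at 24 hours, and 3 without SIRT1intKO replicate 4 at 0 hours.

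*Cdk1*, the kinase that starts mitosis, ranged from 0.664 to 1.61 CPM (median 1.31) in WT livers at 0 hours and from 0.729 to 3.58 (median 1.02) at 6 hours, and gave 0.738, 0.914, 0.943 and 0.647 at 24 hours. The SIRT1intKO livers ranged from 0.751 to 2.11 CPM (median 1.22) at 0 hours, gave 0.449, 0.634, 1.07, 0.607 and 1.44 at 6 hours, and ranged from 0.542 to 2.2 (median 0.851) at 24 hours. All groups overlapped, and the changes at 24 against 0 hours were -0.52 ± 0.43 (SE, adjusted p = 0.365) and -0.15 ± 0.36 (adjusted p = 0.74).

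*Ccna2*, the cyclin of S phase and G2, ranged from 0.3 to 1.02 CPM (median 0.82) in WT livers at 0 hours and from 0.623 to 2.18 (median 0.952) at 6 hours, and gave 0.369, 0.571, 0.471 and 0.0996 at 24 hours. In SIRT1intKO livers the values ranged from 0.398 to 1.61 CPM (median 0.837) at 0 hours, gave 0.962, 0.493, 0.755, 0.91 and 0.898 at 6 hours, and ranged from 0 to 1.15 (median 0.372) at 24 hours. WT livers at 24 hours were all below those at 6 hours (-1.51 ± 0.56, SE, log2; adjusted p = 0.0593), and the other groups overlapped. *Ccna2* is 1 of 7 members with exons that overlap another gene, here *Exosc9* (median 12.1 CPM in WT livers at 0 hours), on the opposite strand as in each of the 7 cases.

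*Top2a*, the topoisomerase that untangles chromosomes, ranged from 0.592 to 1.5 CPM (median 0.822) in WT livers at 0 hours and from 0.219 to 2.33 (median 0.512) at 6 hours, and gave 0.492, 0.171, 0.733 and 0.548 at 24 hours. Values in SIRT1intKO livers ranged from 0.723 to 1.43 CPM (median 0.941) at 0 hours, gave 0.449, 0.0704, 0.314, 1.09 and 0.359 at 6 hours, and gave 0.12, 1.76, 0.266, 0.379, 1.45, 1.56 and 1.41 at 24 hours. SIRT1intKO replicates 2, 5, 6 and 7 held 1.41 to 1.76 CPM, and the other 3 lay below every 0-hour liver. The mean change of 0.04 ± 0.50 (SE, adjusted p = 0.957) therefore averages livers that lay on both sides of the 0-hour median. The same 4 livers held the most *Mcm2* (4.58 to 6.98 CPM) and *Uhrf1* of the 7. Replicates 5, 6 and 7 were in the later run of library numbers, and replicates 1 to 4 in the earlier run. Replicate 2 had the highest summed neutrophil (948 CPM), macrophage (221) and Kupffer cell markers (273) of its group. Its lymphocyte markers (0.147) were the lowest. The part of the runs or of these cells in the values was not tested.

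**Figure D4:**
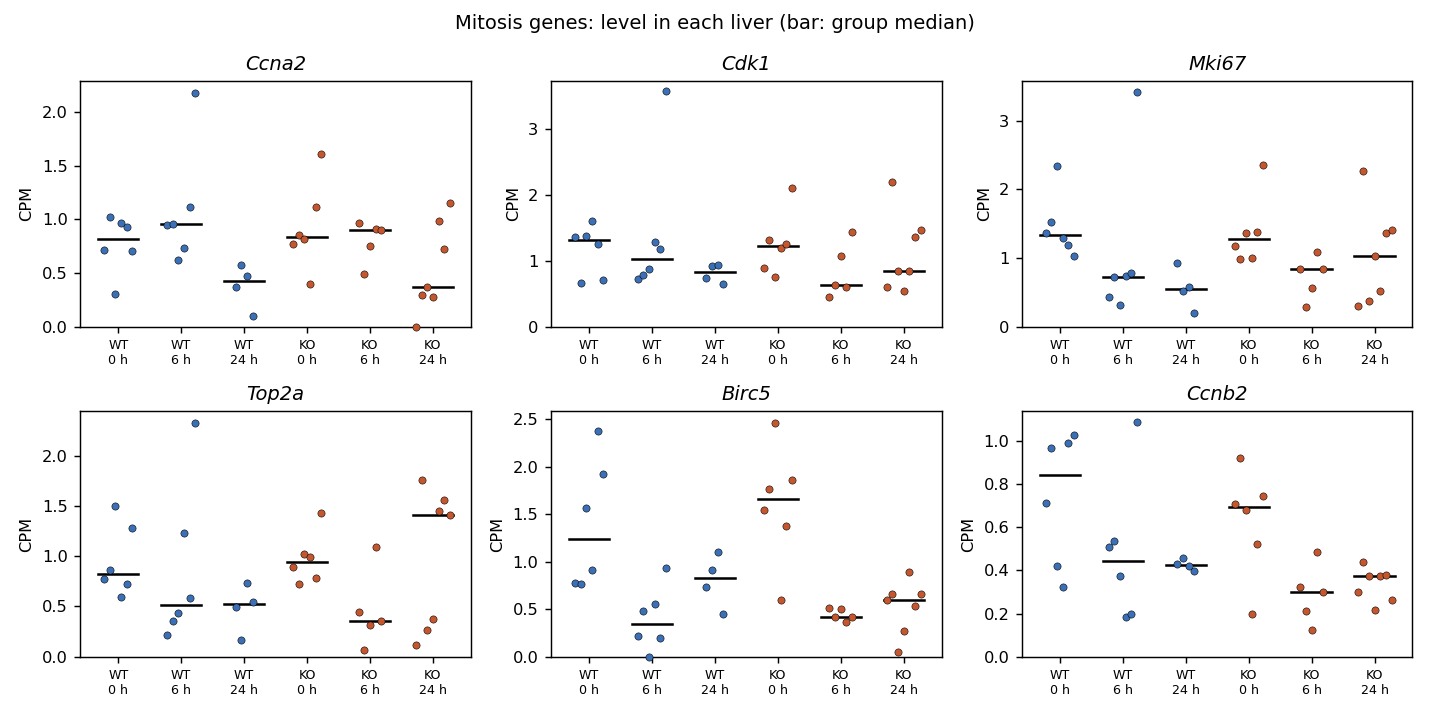
CPM (y axis, from 0) of 6 mitotic genes in each liver (points) of the 6 groups (x axis; KO is SIRT1intKO), with the group median as a bar. WT replicate 6 at 6 hours was the highest liver for *Cdk1* and *Mki67*, and the WT livers at 24 hours held 0.199 to 0.922 CPM of *Mki67*, below all WT livers at 0 hours.

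The S-phase and mitotic genes were then set side by side in each liver, as the mean log2 CPM of the 22 S-phase genes minus that of the 12 mitotic genes. In WT livers this difference ranged from 1.80 to 2.17 (median 1.95) at 0 hours and from 1.02 to 2.04 (median 1.85) at 6 hours, and from 2.21 to 2.79 (median 2.56) at 24 hours. In SIRT1intKO livers it ranged from 1.31 to 2.36 (median 1.78), from 1.51 to 2.19 (median 1.84) and from 2.01 to 2.72 (median 2.39). In WT mice the S-phase genes lay further above the mitotic genes in every 24-hour liver than in any other liver. The margin was narrow, with a lowest value of 2.21 at 24 hours against a highest of 2.17 at 0 hours. In SIRT1intKO mice the ranges overlapped. The S-phase mean had medians of 1.66, 1.19 and 1.52 log2 CPM in WT and of 1.60, 0.99 and 1.74 in SIRT1intKO livers. The mitotic mean had medians of -0.27, -0.79 and -0.95 in WT and of -0.22, -0.87 and -0.48 in SIRT1intKO livers. At 24 hours the S-phase median was thus below its 0-hour median in WT and above it in SIRT1intKO livers, and the mitotic median was below its 0-hour median in both genotypes. Without *Mcm10* and *Tk1*, which had the largest falls, the S-phase medians were 1.29, 1.02 and 1.44 in WT and 1.24, 0.79 and 1.85 in SIRT1intKO livers, so that the 24-hour median was above the 0-hour median in both.

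**Figure D5:**
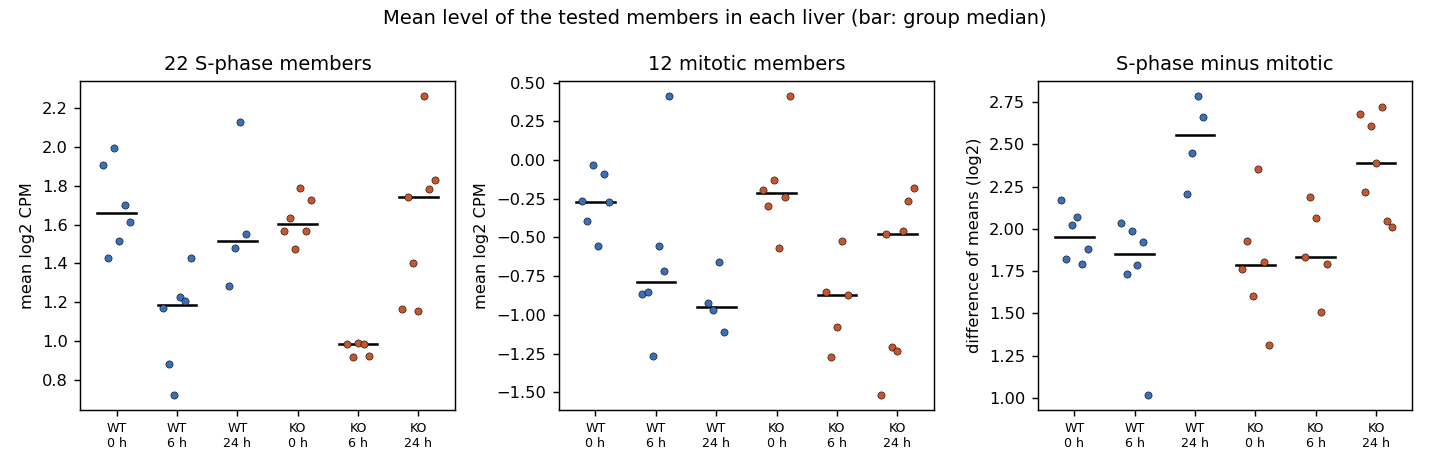
Mean log2 CPM of the 22 S-phase genes (left), of the 12 mitotic genes (middle) and the difference between them (right) on the y axes, in each liver (points) of the 6 groups (x axis; KO is SIRT1intKO), with the group median as a bar. At 24 hours the difference was 2.01 or more in every liver, and WT replicate 6 at 6 hours was the lowest at 1.02.

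Finally, SIRT1intKO livers were compared with WT livers at each time, which asks whether intestinal *Sirt1* deletion changed these genes in the liver. At 0 and 6 hours 0 of the 34 genes were called by edgeR, as were 0 of all genes tested (0%), with 1.06% and 6.48% of all genes and 0 of the 34 at an unadjusted p under 0.05. DESeq2 also called 0 of the 34 at these times. At 24 hours 1 S-phase gene, *Mcm10*, was called lower in SIRT1intKO livers and 0 mitotic genes were called, against 1.36% of all genes called higher and 1.29% lower (2.65% in either direction). At an unadjusted p under 0.05 there were 3 S-phase genes and 1 mitotic gene (23.4% of all genes). For 0 of the 34 genes did the 2 groups not overlap at 24 hours, against 1.97% of all genes. The median difference at 24 hours was 0.11 for the S-phase and 0.39 for the mitotic genes, beside -0.02 over all genes. None of the 34 interactions, how far the change since baseline differed by genotype, was called by edgeR or DESeq2 at 6 hours (0% of all genes by edgeR) or 24 hours (0.00668%), where 0 and 2 had an unadjusted p under 0.05 (2.99% and 12.7% of all genes). Without SIRT1intKO replicate 5 at 24 hours 1 S-phase interaction was called at 24 hours.

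The *Mcm10* difference at 24 hours was -1.82 ± 0.55 (SE, log2; adjusted p = 0.045). SIRT1intKO replicate 5, at 17.1 CPM, lay within the WT range of 1.48 to 38.8 CPM, and WT replicate 1 lay below all SIRT1intKO livers. The adjusted p ranged from 0.000959 to 0.363 over 40 alternative fits, and the call was lost in 17. Among these were the fits without WT replicates 1, 4 or 5, or SIRT1intKO replicates 1 or 6, at 0 hours, without WT replicate 5 at 6 hours, and without WT replicates 3 or 4, or SIRT1intKO replicates 1, 2, 3, 4, 6 or 7, at 24 hours, with values from -1.82 to -1.0. The value was -1.0 without WT replicate 3 and -2.65 without SIRT1intKO replicate 5. The count of S-phase genes called became 2 without WT replicates 1 or 2 or SIRT1intKO replicate 5 at 24 hours. *Tk1* had a difference of -1.26 ± 0.42 (adjusted p = 0.0644) and its overlapping neighbour *Afmid* one of -1.53 ± 0.42 (adjusted p = 0.0297). The mitotic genes *Aurka* (0.84 ± 0.44, adjusted p = 0.252), *Mki67* (0.91 ± 0.54, adjusted p = 0.312) and *Top2a* (1.02 ± 0.60, adjusted p = 0.307) had higher mean levels in SIRT1intKO livers, with overlapping groups and no passed test. The mitotic gene with the largest difference was *Bub1b*, of the spindle checkpoint, which was lower in mean level in SIRT1intKO livers (-1.24 ± 0.51, adjusted p = 0.13) and was the 1 mitotic gene with an unadjusted p under 0.05. Its WT livers held 0.492, 1.31, 0.419 and 0.149 CPM and its SIRT1intKO livers 0 to 0.458 CPM, so the groups overlapped. *Birc5* had -0.60 ± 0.50 (adjusted p = 0.496).

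Other genes of the same pathways were looked at in 3 lists. Of 45 other replication genes, 40 were tested. At 6 against 0 hours 3 were called higher and 3 lower in WT (7.14% and 8.33% of all genes) and 6 and 4 in SIRT1intKO livers (7.8% and 8.67% of all genes). Those called higher in both genotypes included *Ccne1* (1.76 ± 0.53 in WT and 3.23 ± 0.57 in SIRT1intKO livers, SE, log2), *Cdc25a* (1.28 ± 0.28 and 1.53 ± 0.29) and *Timeless* (1.07 ± 0.20 and 1.31 ± 0.21), so these genes rose at the time at which *Mcm10*, *Tk1* and *E2f1* fell. *Fen1* (1.17 ± 0.28) and *Chaf1b* (1.26 ± 0.38) were called higher in SIRT1intKO livers, and in WT livers *Fen1* rose by 0.90 ± 0.27 and *Chaf1b* had 0.55 ± 0.37 (adjusted p = 0.253). At 24 against 0 hours 7 were called higher and 0 lower in WT (8.3% and 7.37% of all genes) and 6 and 0 in SIRT1intKO livers (11.9% and 11% of all genes). *Ccne1*, the cyclin that carries cells into S phase, rose by 2.88 ± 0.56 (SE, log2; adjusted p = 0.000254) in WT and 2.97 ± 0.54 (adjusted p = 4.76e-05) in SIRT1intKO livers. *Cdc25a*, the phosphatase that activates CDK2, rose by 2.14 ± 0.30 (adjusted p = 5.23e-06) and 1.05 ± 0.27 (adjusted p = 0.00175), and *Fen1*, the flap nuclease of Okazaki fragments, by 2.01 ± 0.29 (adjusted p = 8.12e-06) and 1.18 ± 0.26 (adjusted p = 0.000462). Between genotypes at 24 hours *Cdc25a* had -0.83 ± 0.28 (adjusted p = 0.0698) and *Fen1* -0.80 ± 0.27 (adjusted p = 0.072), short of the threshold. *Chaf1b*, a histone chaperone at forks, rose by 1.98 ± 0.39 (adjusted p = 0.000281) and 1.52 ± 0.36 (adjusted p = 0.0008), and *Dnmt1*, the maintenance DNA methyltransferase that works with UHRF1, by 1.05 ± 0.25 (adjusted p = 0.00173) and 0.79 ± 0.22 (adjusted p = 0.00352). *Timeless*, of the fork protection complex, rose by 1.25 ± 0.22 (adjusted p = 8.14e-05) and 1.20 ± 0.20 (adjusted p = 1.16e-05). *Gmnn*, the inhibitor of licensing by CDT1, rose in SIRT1intKO livers (0.80 ± 0.23, adjusted p = 0.00386) and had 0.15 ± 0.26 in WT, and *Ccne2* had 0.57 ± 0.50 and -0.19 ± 0.44 and did not pass.

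Of 46 other mitosis genes, 29 were tested, and 4 were called higher and 2 lower in WT (8.3% and 7.37% of all genes) and 2 and 3 in SIRT1intKO livers (11.9% and 11%) at 24 against 0 hours. At 6 against 0 hours the counts were 1 and 4 in WT (7.14% and 8.33% of all genes) and 1 and 6 in SIRT1intKO livers (7.8% and 8.67%). *Cks1b*, a subunit of cyclin-dependent kinases, rose by 1.52 ± 0.32 (SE, log2; adjusted p = 0.000532) and 1.48 ± 0.29 (adjusted p = 9.24e-05), and *Zwint*, of the kinetochore, by 1.01 ± 0.20 (adjusted p = 0.000336) and 1.29 ± 0.18 (adjusted p = 1.28e-06). *Spc24*, also of the kinetochore, fell by 2.17 (SE 0.50, adjusted p = 0.00138) and 2.14 (SE 0.41, adjusted p = 8.2e-05) on the log2 scale. *Pttg1*, securin, rose in WT livers by 2.35 ± 0.87 (adjusted p = 0.0374) and had 1.01 ± 0.78 in SIRT1intKO livers (adjusted p = 0.29). Of 21 cell cycle transcription regulators, 1 was called higher and 1 lower in WT (8.3% and 7.37% of all genes) and 1 and 2 in SIRT1intKO livers (11.9% and 11%) at 24 against 0 hours, and 1 and 0 in WT (7.14% and 8.33%) and 1 and 1 in SIRT1intKO livers (7.8% and 8.67%) at 6 against 0 hours. *E2f3* rose at 24 hours by 1.22 ± 0.29 (adjusted p = 0.00158) and 1.04 ± 0.25 (adjusted p = 0.00119), and *E2f7*, a repressor, fell by 1.54 (SE 0.51, adjusted p = 0.0186) and 1.63 (SE 0.42, adjusted p = 0.00177) on the log2 scale. *E2f8*, a repressor of the same kind, fell in SIRT1intKO livers by 2.06 (SE 0.52, adjusted p = 0.00151) and had -0.24 ± 0.58 in WT livers, with a difference between genotypes of -1.32 ± 0.57 (adjusted p = 0.156). At 6 against 0 hours *E2f8* was called higher in WT livers (1.33 ± 0.51, edgeR adjusted p = 0.0402) and had -0.23 ± 0.53 in SIRT1intKO livers. *E2f7* was called lower at 6 hours in SIRT1intKO livers (-1.59 ± 0.47, edgeR adjusted p = 0.00847) and had -0.07 ± 0.41 in WT livers. Neither interaction at 6 hours was called. *Foxm1* (0.56 ± 0.50 and 0.10 ± 0.44) and *Mybl2* (-0.13 ± 0.49 and -0.97 ± 0.42), which act on CHR promoters of mitotic genes, did not pass the test at 24 against 0 hours in either genotype. None of the genes tested in these 3 lists was called by edgeR between the genotypes at any time. Of all genes, 0% were called at 0 and 6 hours and 2.65% at 24 hours.

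Markers of cell types moved over the same hours. Summed CPM of 8 hepatocyte markers ranged from 75100 to 85300 and 66600 to 92100 at 0 hours in WT and SIRT1intKO livers and from 33400 to 45500 and 37900 to 74900 at 24 hours, and none of the 8 was at 0, so the label of liver held in all groups. Summed neutrophil markers had medians of 15.6 and 50.7 CPM in WT and of 8.99 and 93.6 CPM in SIRT1intKO livers at 0 and 24 hours. Summed Kupffer cell markers had medians of 139 and 82.4 CPM and of 137 and 138 CPM, and cholangiocyte markers of 47.1 and 171 CPM and of 49.8 and 146 CPM. Erythroid precursor markers had medians of 128 and 80.8 CPM and of 137 and 49.3 CPM, with *Hemgn* at 0 in all groups, and lymphocyte markers did not exceed 4.98 CPM in any liver. Markers of monocytes and macrophages (87.6 and 52.9, and 81.9 and 103 CPM), sinusoidal endothelium (120 and 60.3, and 123 and 86.2 CPM), stellate cells (168 and 170, and 163 and 180 CPM) and neutrophil precursors (0.568 and 10.6, and 0.33 and 1.75 CPM) also differed in their medians. The part of these cells in the values of the replication and mitosis genes was not tested.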

How the data were processed

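Whole-liver RNA was sequenced as stranded mRNA libraries. The authors ran the nf-core/rnaseq pipeline, aligned reads to GRCm39 with STAR and quantified genes with Salmon. The deposited values are expected counts per gene, which need not be whole (4.97% were not) and were rounded here. Of 35 columns, 34 matched a library by label and 1 was not used. For 1255 genes the symbol was restored through the identifier. Each library held 14892122 to 23480492 counts. No pair of libraries in a group agreed within sampling noise (chi-square per gene of 14.65 or more).

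Counts were scaled by TMM, and 14980 genes passed edgeR's filterByExpr. A single edgeR quasi-likelihood model with 1 mean for each of the 6 groups was fitted to all 34 libraries, giving 11 comparisons, and p-values were adjusted by Benjamini-Hochberg over all genes tested. A call needed both an adjusted p under 0.05 and a log2 fold change beyond 1 in either direction. Mean log2 CPM used a prior count of 2. R 4.3.3, edgeR 4.0.16, DESeq2 1.42.0 and limma 3.58.1 were used. On simulated data for SIRT1intKO against WT at 24 hours (14980 genes, 200 changed 4-fold), edgeR recovered 100% and called 10 others. The changed genes were drawn only from those above a minimum mean count, and all genes had the same spread. The simulation therefore does not show the power for the low mitotic genes or for smaller changes.

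The members and lists were chosen with earlier results of these data known. Values by liver were given for genes called between genotypes, for the 3 called genes with the largest and the smallest change at 24 against 0 hours in each list and genotype, and for a set of known markers. Other genes are given by fold change, and *Mcm6* and *Ccnb2*, *Aurkb*, *Aurka* and the livers named for them were singled out after their values were seen. Alternatives were DESeq2, other scaling, a looser filter, only the groups compared, a replicate block, another prior count and leaving out each library. Promoters came from RefSeq on GRCm38.p6, a different build from that of the counts, and exon lengths from GENCODE.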

Additional observations from a re-analysis of the deposited data

Results flagged for a closer look

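Of 222 sets of values (a gene or a mean in a group of 4 to 7 livers), 9 held a liver far from the others of its group, and chance gives about 1 in 20. WT replicate 6 at 6 hours was such a liver 3 times. It held 3.58 CPM of *Cdk1* (the others 0.729 to 1.29) and 3.42 CPM of *Mki67* (0.311 to 0.784), and its S-phase mean was 1.02 above its mitotic mean on the log2 scale (1.73 to 2.04). SIRT1intKO replicate 5 at 24 hours held 17.1 CPM of *Mcm10* (1.76 to 3.24) and 3.89 CPM of *Gins1* (1.83 to 2.28). SIRT1intKO replicate 6 at 0 hours held 2.36 CPM of *Mki67* (0.986 to 1.38) and was also the highest of its group in summed Kupffer cell (222 CPM) and macrophage markers (130 CPM), whose part was not tested. The remaining 3 were *Rrm2* in WT replicate 1 at 24 hours (1.41 CPM against 0.996 to 1.05), *E2f1* in WT replicate 4 at 0 hours (1.72 CPM against 2.97 to 3.42) and *Ccna2* in WT replicate 3 at 0 hours (0.3 CPM against 0.705 to 1.02).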

How the results depend on the processing

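Of 45 calls of single genes, 30 were kept in every alternative fit that tested the gene, 15 were lost in at least 1, and 0 changed sign. Replicate numbers did not pair the libraries: over 76 same-numbered pairs the correlation of deviations ran from -0.31 to 0.22, and 2 of 34 libraries were closest to their own number. With a replicate block 10 of the 45 calls were lost. The S-phase count for SIRT1intKO against WT at 24 hours went from 1 to 0 with the block, with the looser filter (at least 1 count) and with only the groups compared, and to 2 with DESeq2. The mitotic count for SIRT1intKO at 6 against 0 hours went from 3 to 1 with the block, the looser filter and only the groups compared. That for WT at 24 against 0 hours went from 1 to 0 with the block, the looser filter and RLE scaling, and that for SIRT1intKO went from 1 to 3 with the block. For WT at 24 against 6 hours DESeq2 gave 1 in place of 0. The S-phase minus mitotic level at 24 hours was 2.83 in WT and 2.69 in SIRT1intKO livers with a prior count of 0.5, against 2.56 and 2.39. The cause of these moves was not tested.

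Leaving out 1 library gave S-phase counts of 4 to 6 (WT) and 6 to 7 (SIRT1intKO) at 6 against 0 hours, 3 to 5 and 6 to 9 at 24 against 0 hours, 4 to 6 and 8 to 10 at 24 against 6 hours, 0 to 2 between genotypes at 24 hours and 0 to 1 for the interaction at 24 hours. Mitotic counts were 1 to 3 and 1 to 5, 0 to 1 and 1 to 3, and 0 to 1 and 0. No other scaling moved the median of all genes by more than 0.073 on the log2 scale. Mitotic values rest on 46 counts or fewer per library.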
